A study of Mus musculus with 2 samples.

Results

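A set of 10 genes of arginine, nitric oxide and polyamine metabolism was followed in small peritoneal macrophages of endotoxemic mice. They are Slc7a2, Nos2, Gch1, Ass1, Asl, Arg1, Arg2, Odc1, Azin1 and Sat1, a list of genes with known roles in these pathways, chosen with earlier results of these data in view and found by gene symbol among the 55487 gene identifiers of the deposited count table, where all 10 were present. The donors were males of the outbred SWISS stock, aged 5 weeks. Every mouse received 20 mg/kg lipopolysaccharide (LPS) from Escherichia coli O55:B5 into the peritoneum, then 30 mL/kg saline under the skin 6 h later, and was killed at 22 h. The LPS library was made from 102283 cells pooled from 7 mice. The LPS+LCC-12 library was made from 66967 cells pooled from 8 mice that also received 0.3 mg/kg LCC-12, a compound known to target copper in mitochondria, into the peritoneum at 6 h. Each group was 1 library, so no difference below was tested against variation between mice, and no mice without LPS were analysed here.

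Arginine is the substrate of competing enzymes in macrophages. Nitric oxide synthase turns it into nitric oxide and citrulline, and citrulline can be rebuilt into arginine. Arginase splits it into urea and ornithine, from which cells make polyamines and proline. High Nos2 is a known feature of macrophages exposed to LPS and interferon, and high Arg1 is known from alternatively activated and tissue-repair macrophages, although LPS can raise both.

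The libraries held 50618409 (LPS) and 47721888 (LPS+LCC-12) counts, and 13482 genes reached 50 counts in at least 1 of them. A gene was called higher or lower when it also differed by at least 2-fold after scaling. Of these genes 6.65% were called lower and 4.01% higher with LCC-12, and their median log2 ratio was 0.02. Where a pair of values is given, the LPS library comes first. Ratios are LPS+LCC-12 over LPS, and their 95% intervals cover counting error only. All 10 genes of the list had at least 50 counts. Called lower were 2 of the 10, Nos2 and Arg2, and 0 were called higher. The median log2 ratio of the 10 was -0.27, with 8 below 0 and 2 above. Of all 13482 genes 6414 were below 0 and 7068 above. In bulk RNA such as this, fewer cells of a type and less RNA per cell cannot be told apart. Markers of neutrophils and of other cell types also differed between the libraries, with values given after the gene results.

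**Figure D1:**
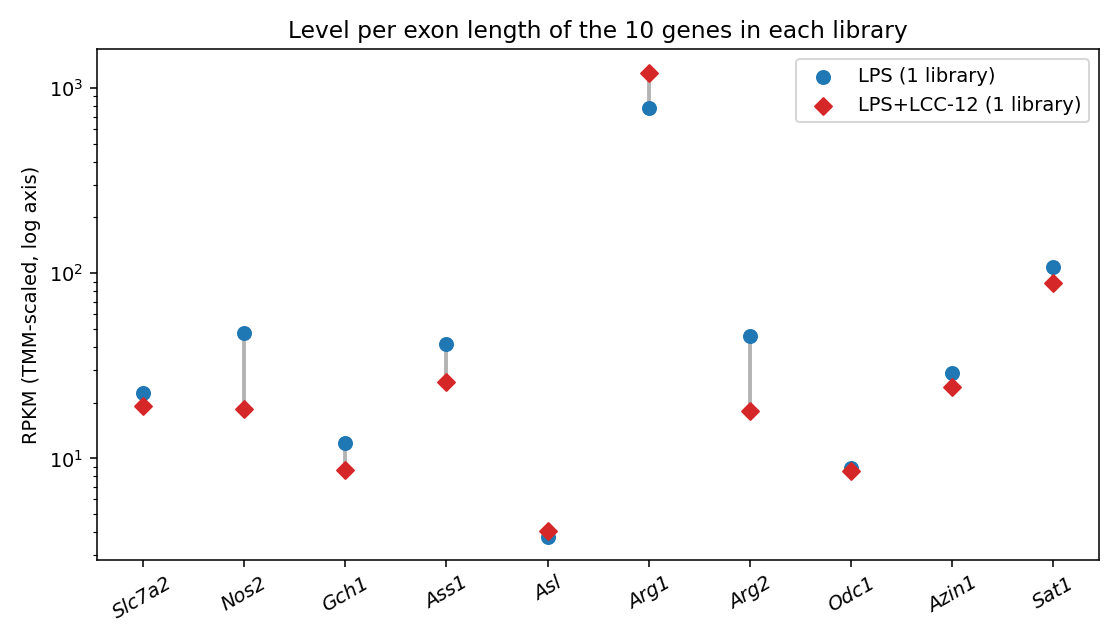
Level of each of the 10 genes in the LPS library (circles) and the LPS+LCC-12 library (diamonds), as RPKM, which is scaled reads per exon length (log axis), with 1 library per group. Arg1 stands highest in both libraries and is higher with LCC-12, whereas Nos2, Arg2 and Ass1 are lower.

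The levels of the 10 genes spanned a wide range when compared per exon length. Arg1 was the highest in both libraries, at 779 and 1207 RPKM (reads per exon length and library size), and ranked 33rd and 18th among the 13482 genes. Sat1 followed at 108 and 88.8 RPKM. In the LPS library Nos2 (47.2 RPKM) and Arg2 (45.6 RPKM) came next and did not differ beyond counting error, with a quotient of 1.04 (interval 0.997 to 1.08). Ass1, Azin1, Slc7a2, Gch1, Odc1 and Asl followed in that order, from 41.4 down to 3.78 RPKM. In the LPS+LCC-12 library Ass1, Azin1 and Slc7a2 stood above Nos2 and Arg2. Nos2 and Arg2 were again neighbours within counting error, at 18.4 and 17.9 RPKM (quotient 1.03, 0.962 to 1.09). Gch1 and Odc1 also came within counting error of each other there, at 8.65 and 8.60 RPKM. These levels use the combined length of all annotated exons, which includes retained introns, so they are approximate.

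Nos2, the inducible nitric oxide synthase (chromosome 11, 78920787 to 78960254, GRCm38), had 10408 counts in the LPS library against 3925 after LCC-12. It was 2.57-fold lower with LCC-12, a log2 ratio of -1.36 (-1.41 to -1.31), so that the whole interval lay beyond 2-fold. Its RPKM rank was 880 and 2321. Slc7a2, which encodes a cationic amino acid transporter that brings arginine into macrophages (chromosome 8, 40862396 to 40922308), had 10243 and 8446 counts. Its log2 ratio was -0.23 (-0.27 to -0.19), within 2-fold. For each Nos2 count there were 0.984 and 2.15 Slc7a2 counts. That quotient within a library does not depend on how the libraries were scaled. A lincRNA on the other strand, Gm26584, shares 635 exon bases with Slc7a2 and had 45 and 14 counts.

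Gch1, GTP cyclohydrolase, makes the first intermediate of tetrahydrobiopterin, the cofactor that nitric oxide synthase requires. Ass1, argininosuccinate synthase, joins citrulline to aspartate, and Asl, argininosuccinate lyase, releases arginine from the product. Gch1 had 3775 and 2614 counts (log2 ratio -0.48, -0.56 to -0.41). Ass1 was 1.61-fold lower, with 4993 and 3006 counts (log2 ratio -0.69, -0.75 to -0.62). Both were lower by more than counting error and both stayed within 2-fold. A processed pseudogene within a Gch1 intron, Gm18811, had 130 and 84 counts. Asl, the lowest of the 10, had 913 and 950 counts, a difference within counting error (log2 ratio 0.10, -0.03 to 0.24). The 2 steps of citrulline recycling thus had unequal ratios. The count quotient of Ass1 to Asl was 5.47 and 3.16, a log2 change of -0.79 (-0.94 to -0.64). Gch1 and Ass1 were lower by less than Nos2. The count quotient of Gch1 to Nos2 was 0.363 and 0.666, and that of Ass1 to Nos2 was 0.480 and 0.766.

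Gch1 and Ass1 were the nitric oxide genes with an entry in the RefSeq promoter table (GRCm38.p6), which also held Odc1 and Sat1 and matched 4 of the 10 genes. Their sequences before the RefSeq start are shown because both genes were lower together with Nos2, 5′ to 3′ on the gene's own strand. Capitals mark matches to the searched motifs. For Gch1 the stretch is chr14:47189414-47189663 on the minus strand, 250 bases. For Ass1 it is chr2:31470020-31470206 on the plus strand, the first 187 bases of the window, which end at the GENCODE start of the gene.
Gch1: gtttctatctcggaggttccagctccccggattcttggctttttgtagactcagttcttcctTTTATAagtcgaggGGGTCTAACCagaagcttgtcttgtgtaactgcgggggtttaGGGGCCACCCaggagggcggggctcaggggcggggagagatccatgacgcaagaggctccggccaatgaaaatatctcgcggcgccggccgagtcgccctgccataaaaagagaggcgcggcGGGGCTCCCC
Ass1: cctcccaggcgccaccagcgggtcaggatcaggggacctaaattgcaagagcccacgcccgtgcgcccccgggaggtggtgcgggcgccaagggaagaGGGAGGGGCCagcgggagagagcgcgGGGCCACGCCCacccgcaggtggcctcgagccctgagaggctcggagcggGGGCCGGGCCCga

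The motifs were searched on both strands in the 250 bases before each RefSeq start. A kappa B motif, the site type of the factor NF-kB written loosely as GGG and CC with any 5 bases between, matched 3 times for Gch1, 6 times for Ass1 with overlaps between matches, 1 time for Odc1 and 0 times for Sat1. It was present in 45.8% of all 32851 promoter windows, so a match to these letters is common. The first 2 matches of Gch1 are GGGTCTAACC and GGGGCCACCC, which begin 174 and 132 bases before the start. Gch1 also held the TATA letters TATAAA on its other strand, present in 12.4% of windows, and Ass1 the E-box CACGTG, in 6.02%. That E-box and the last kappa B match of Ass1, which begin 36 and 63 bases before the RefSeq start, lie past the GENCODE start and are not in the printed stretch. The letters of a gamma-activated site (TTCNNNGAA, 7.02% of windows), an interferon-response motif (GAAA repeated after any 2 bases, 2.98%), AP-1 (TGANTCA, 6.75%) and C/EBP (TTGCNNAAT, 2.11%) were in none of the 4 windows. The windows were 59.2% (Gch1), 75.6% (Ass1), 80.0% (Odc1) and 59.6% (Sat1) G and C, against a median of 52.4% over all windows. The matches are descriptions of these letters and not measured binding.

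**Figure D2:**
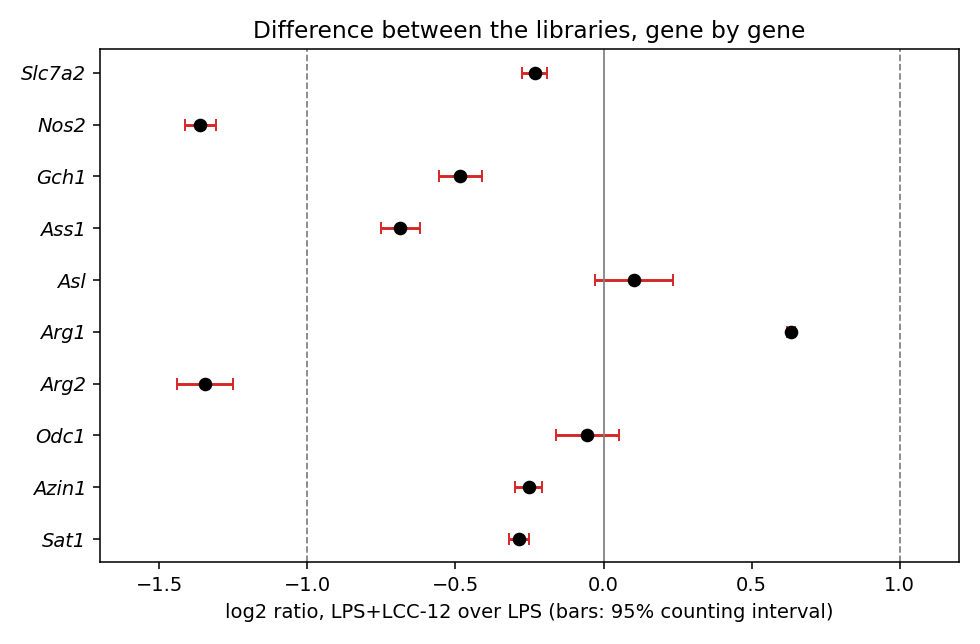
The log2 ratio of LPS+LCC-12 over LPS for each of the 10 genes (points) with its 95% counting interval (bars), 1 library per group, and dashed lines at 2-fold. Nos2 (-1.36) and Arg2 (-1.34) lie beyond the lower line and Arg1 (0.63) is the highest.

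The 2 arginases differed in opposite directions. Arg1, the cytosolic arginase (chromosome 10, 24915221 to 24927484), had 86622 counts in the LPS library against 130099 after LCC-12. It was 1.55-fold higher, a log2 ratio of 0.63 (0.62 to 0.65), which is within the 2-fold rule but beyond counting error, and lay at the 91.3 percentile of all ratios. Arg2, the mitochondrial arginase (chromosome 12, 79130777 to 79156301), had 3249 and 1239 counts. It was 2.54-fold lower, a log2 ratio of -1.34 (-1.44 to -1.25), at the 3.72 percentile, beside Nos2 at 3.62. The count quotient of Arg2 to Nos2 was 0.312 and 0.316, a log2 change of 0.02 (-0.09 to 0.12) that holds 0. The count quotient of Arg1 to Arg2 was 26.7 and 105, a log2 change of 1.98 (1.88 to 2.07). That of Arg1 to Nos2 was 8.32 and 33.1, a log2 change of 1.99 (1.94 to 2.05).

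The sequences of the 2 arginase transcripts show how far their reads can be told apart. The coding sequences, 972 and 1065 bases long in GENCODE M21, were identical at 65.3% of 966 aligned bases, and the longest run that the transcripts shared was 12 bases, against reads of 100 bp. That run is shown in capitals within the surrounding coding sequence, coding bases 483 to 574 of Arg1 and 540 to 631 of Arg2, because it is the longest stretch that the 2 genes have in common.
Arg1: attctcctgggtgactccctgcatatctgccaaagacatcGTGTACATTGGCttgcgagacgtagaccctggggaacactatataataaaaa
Arg2: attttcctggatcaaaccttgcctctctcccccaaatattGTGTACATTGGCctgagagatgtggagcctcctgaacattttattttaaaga
Arg2 shares 285 exon bases with Vti1b on the other strand, which had 4359 and 4091 counts, and 116 with the antisense gene Gm48780, which had 67 and 86. Whether the counting used strand is not given in the sources used here, so the Arg2 counts could include reads of these genes.

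Ornithine decarboxylase, encoded by Odc1, makes putrescine, the first polyamine, and Azin1 encodes a decarboxylase homolog without that activity that keeps the enzyme from being degraded by binding antizyme. Sat1 acetylates spermidine and spermine and so leads to their export or breakdown. Odc1 (chromosome 12, 17544794 to 17551505) had 1518 and 1416 counts, a difference within counting error (log2 ratio -0.05, -0.16 to 0.05). Azin1 had 9014 and 7328 counts (log2 ratio -0.25, -0.30 to -0.21). Sat1 had 14995 and 11918 counts (log2 ratio -0.29, -0.32 to -0.25). Azin1 and Sat1 were lower by 1.19-fold and 1.22-fold, past counting error and within 2-fold. The count quotient of Sat1 to Odc1 was 9.88 and 8.42, a log2 change of -0.23 (-0.34 to -0.12). The count quotient of Arg1 to Odc1 was 57.1 and 91.9. Odc1 and Azin1 coding sequences were identical at 61.6% of 1335 aligned bases and shared no run longer than 17 bases. The antisense gene Gm49077 shares 358 exon bases with Azin1 and had 347 and 217 counts.

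**Figure D3:**
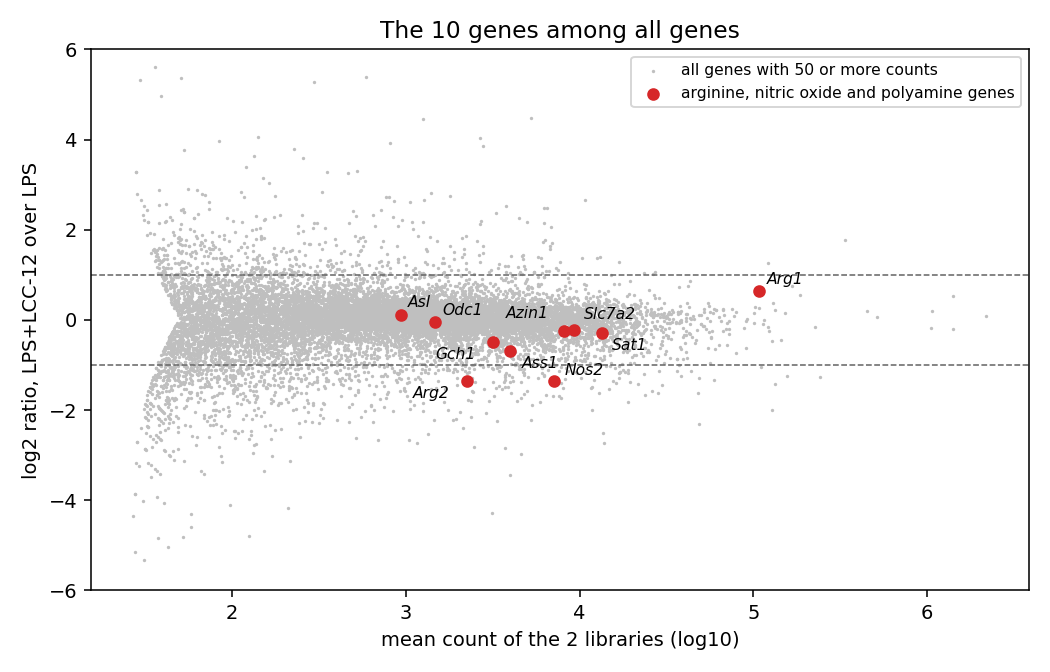
The log2 ratio of LPS+LCC-12 over LPS against the mean count (log10) for all 13482 genes with 50 or more counts (grey) and the 10 genes (red), with dashed lines at 2-fold. Nos2 and Arg2 are the only red points beyond a line, and 8 grey genes lie outside the vertical axis.

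The wider pathway was read from a list of 90 other genes for arginine transport, the urea cycle, nitric oxide, tetrahydrobiopterin, methylarginine, proline, creatine and polyamines. Of these 66 had 50 or more counts, and 63 were within 2-fold, 2 lower and 1 higher, with a median log2 ratio of 0.18. Smox, spermine oxidase, which breaks spermine down to spermidine, was lower with 5571 and 2303 counts, 2.34-fold (log2 ratio -1.23, -1.30 to -1.16). Slc25a2, a mitochondrial ornithine carrier gene, had 108 and 17 counts (log2 ratio -2.59, -3.45 to -1.88). Ckb, brain-type creatine kinase, was higher with 361 and 754 counts (log2 ratio 1.11, 0.93 to 1.29), and its interval reached below 2-fold.

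**Figure D4:**
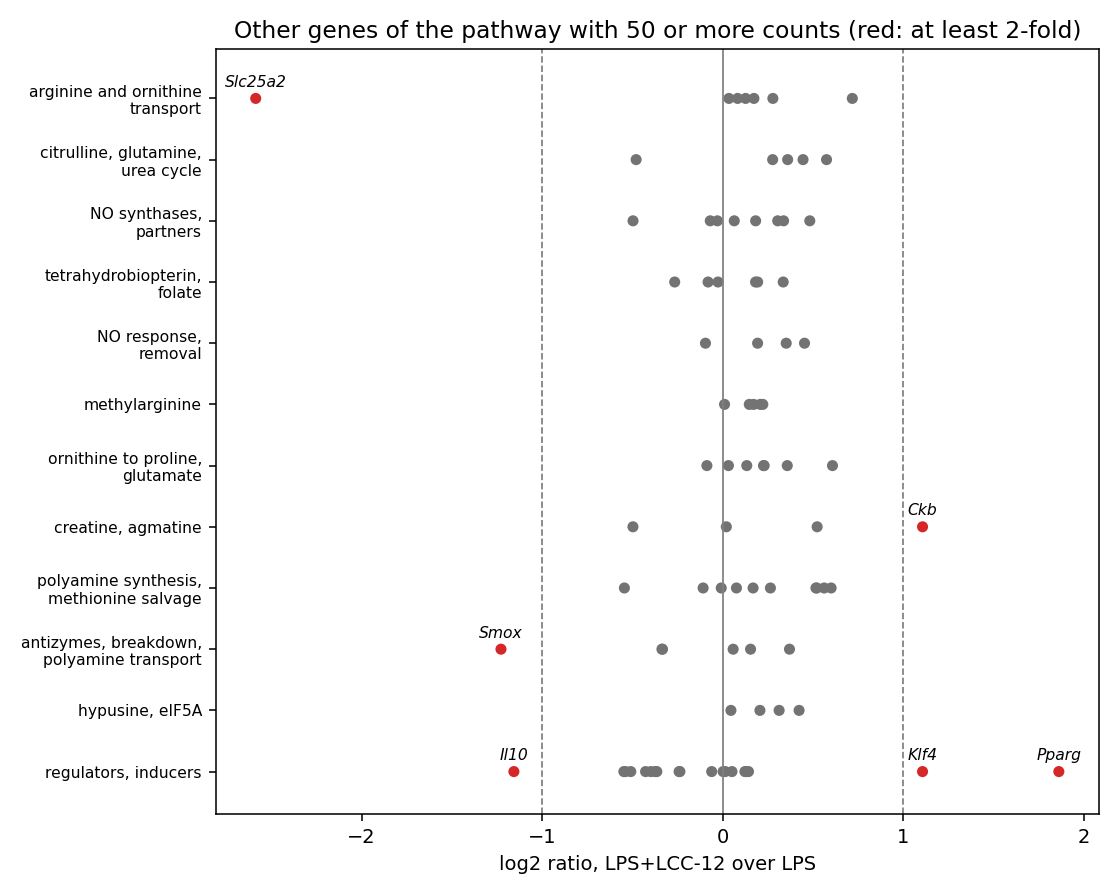
The log2 ratio of LPS+LCC-12 over LPS for the other pathway genes and for regulators with 50 or more counts, 1 point per gene and 1 row per group, with dashed lines at 2-fold. Smox, Slc25a2 and Il10 lie beyond the lower line and Ckb, Klf4 and Pparg beyond the upper one.

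Of the 66 genes 49 were above 0 and 17 below, against 7068 above and 6414 below of all 13482 genes. The lowest after Slc25a2 and Smox were Adi1 at -0.54, Gamt and Nos1ap at -0.50 each and Aldh4a1 at -0.48. Gamt had only 92 and 63 counts (interval -0.99 to -0.02) and Nos1ap 108 and 74 (-0.95 to -0.06). Aldh4a1 had 88 and 61, and its interval, -0.98 to 0.005, holds 0. Besides Ckb, the highest ratios within the groups included Slc25a15, a mitochondrial ornithine carrier gene, at 0.72, Prodh, proline dehydrogenase, at 0.61 and Padi4, which turns arginine residues of proteins into citrulline, at 0.58. Of 7 readable arginine and ornithine transporters 6 were above 0, among them Slc3a2, the heavy chain of several amino acid transporters, at 0.17 and Slc7a7, its arginine-exporting partner, at 0.08. Partners of nitric oxide synthase included the chaperone Hsp90ab1 at 0.18. The 6 tetrahydrobiopterin and folate genes with 50 or more counts were within 2-fold, with Pts at -0.08 and Spr at 0.19, the enzymes of the following steps. In the citrulline and urea cycle group, Glul, glutamine synthetase, was at 0.36. Hmox1, heme oxygenase, was at 0.19 and Cyb5r3, a reductase, at 0.35 among genes of nitric oxide response and removal. All 5 readable methylarginine genes lay between 0.01 and 0.22, among them the arginine methyltransferases Carm1 and Prmt1. Oat, which turns ornithine toward proline and glutamate, was at 0.13 with 2506 and 2663 counts, and P4ha1, a collagen prolyl hydroxylase, at 0.03.

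The group of polyamine synthesis and methionine salvage was also within 2-fold in all 10 readable genes. Among them, Amd1, Srm and Sms act in polyamine synthesis itself. Srm, spermidine synthase, had 540 and 751 counts (log2 ratio 0.52, 0.36 to 0.68), whereas Sms, spermine synthase, had 1262 and 1134 (log2 ratio -0.11, -0.23 to 0.01). Mat2a, which makes the methyl donor that spermidine synthesis draws on, had 4657 and 6455 counts (log2 ratio 0.52, 0.46 to 0.57). Amd1 was at 0.17, and its copy Amd2, with 24 and 15 counts, is identical at 99.9% of coding bases, with a shared run of 930 bases in the transcripts, so reads within that run cannot be assigned to either gene. The antizyme genes Oaz1 and Oaz2, whose products inhibit ornithine decarboxylase, were at 0.06 and -0.34. Eif5a, which carries hypusine, an amino acid made from spermidine, had 11206 and 14558 counts (log2 ratio 0.42, 0.39 to 0.46).

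Known regulators and inducers of Nos2 and the arginases were read from a further list of 23 genes, of which 19 had 50 or more counts, with 2 called higher and 1 lower. Klf4, a transcription factor known in alternative activation, had 4885 and 10196 counts (log2 ratio 1.11, 1.06 to 1.16). Pparg, a nuclear receptor of lipid metabolism known to act on the Arg1 gene, had 53 and 188 (log2 ratio 1.86, 1.43 to 2.34). Il10 had 263 and 114 counts (log2 ratio -1.16, -1.49 to -0.84). Nfkb1, a factor that acts on the Nos2 gene, was within 2-fold at -0.55 (-0.58 to -0.52), as were Irf1 at -0.24 and Cebpb at -0.24. Rela was at 0.01, Irf8 at 0.05, Tlr4 at 0.12 and Ifngr1 at 0.14. Of the 19 genes 8 were above 0 and 11 below, with a median of -0.24. Stat6, the factor of interleukin-4 signalling, was at 0.00 with 15339 and 14883 counts, and Il4ra, a receptor chain of that pathway, at -0.54. Hif1a was at -0.37. Ifng and Il13 had 0 counts in both libraries, which allows up to 3 counts each, and Il4 had 3 in each.

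The genes nearest to each of 3 members in level and ratio were found by the distance between their log2 CPM (counts relative to library size) in the 2 libraries, which is a likeness over only 2 points. Nearest to Nos2 were Bcl2l1, an inhibitor of apoptosis (10406 and 4127 counts), and Ddx58, the RNA sensor RIG-I (11513 and 4215). Nearest to Arg2 were Xaf1 (3049 and 1189 counts) and Dennd3 (3403 and 1336). Nearest to Arg1 were Eef1a1, a translation elongation factor (93211 and 110839 counts), and Tln1, talin (99827 and 115552). Both had smaller ratios than Arg1, at 0.30 and 0.26.

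Markers of other cells differed between the libraries. General macrophage markers had a median log2 ratio of 0.00 over 10 genes, all within 2-fold, and summed to 8651 and 9996 CPM. Of 15 neutrophil markers 11 were at least 2-fold lower, 0 were higher and none was at 0 counts, with a median of -1.24 and a summed CPM of 14407 and 5607. S100a9 had 195432 and 70816 counts and Cxcr2 17546 and 6039. Of 10 monocyte markers 5 were lower and 1, Fn1, was higher. Their summed CPM went the other way from their median of -0.84, from 9329 to 14693, and Fn1 alone had 155522 and 515430 counts. Of 8 mast cell markers 6 reached 50 counts and 5 were lower, as were 4 of 4 such mesothelial and 3 of 4 such fibroblast markers. None of 6 B cell, 1 T cell and 2 eosinophil markers with that many counts was past 2-fold, and Epx and Prg2 of the eosinophil list had 0 counts. Of 12 small peritoneal macrophage markers 11 were at least 2-fold higher, with a median of 1.80, and of 12 large peritoneal macrophage markers 8 were, with a median of 1.39. The small list summed to 619 and 1484 CPM. The large list summed to nearly the same in both libraries, 5249 and 5471 CPM, with 9 markers above 0 and 3 below. Saa3, 1 of those below, made up most of that sum, at 4874 and 4360 CPM. The marker lists were chosen with earlier results of these data known, so these counts are descriptions and not an independent measure of cell types. Gata6, which defines the large type, had 529 and 720 counts. Nos2 and Arg2 moved in the direction of the neutrophil list, which was also that of the monocyte median. The mast cell, mesothelial and fibroblast medians lay on that side as well, at -1.60, -3.40 and -2.39. These lists had far lower summed CPM than the neutrophil list. They summed to 213 and 68.3 (mast cell), 7.65 and 1.32 (mesothelial) and 12.4 and 3.64 (fibroblast). With 5 counts added the medians were -1.56, -2.56 and -2.17 in the same order. Arg1 moved in the direction of the medians of the peritoneal macrophage lists. The part of these cell types in the ratios of the 10 genes was not tested.

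**Figure D5:**
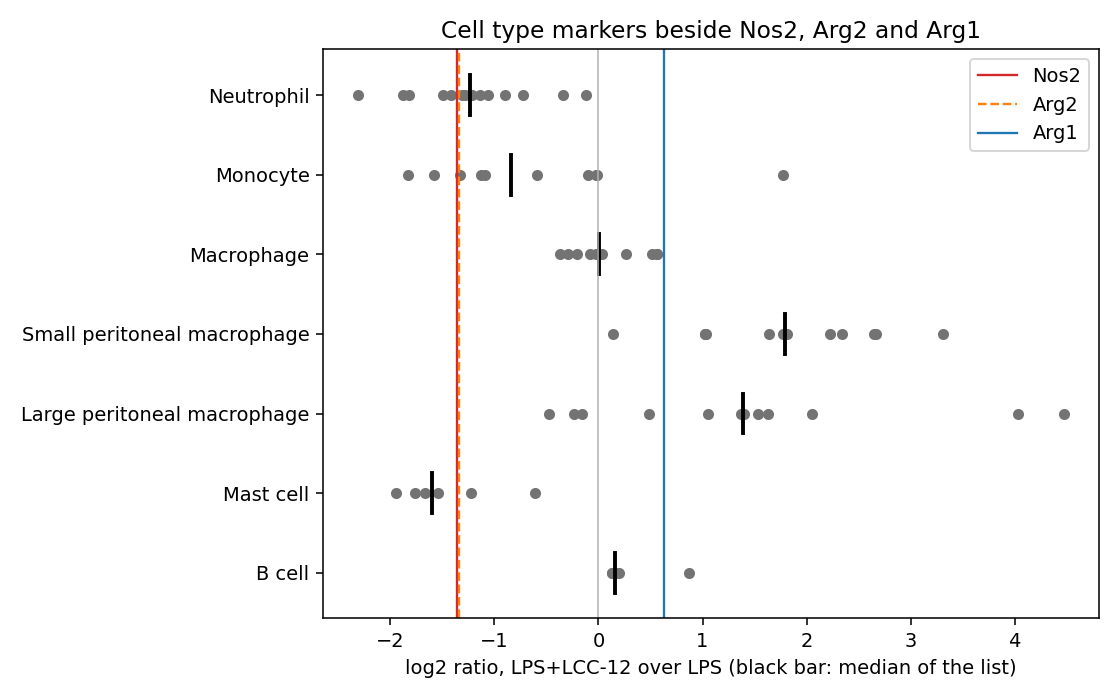
The log2 ratio of LPS+LCC-12 over LPS for marker genes with 50 or more counts, with vertical lines at the ratios of Nos2, Arg2 and Arg1. Each row is 1 cell type with its median as a black bar. The mesothelial, fibroblast, T cell and eosinophil lists are not drawn. The neutrophil (-1.24), mast cell (-1.60) and monocyte (-0.84) medians lie on the side of Nos2 and Arg2, and the general macrophage median lies at 0.00.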

How the data were processed

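RNA of 2 pooled libraries was sequenced with 100 bp paired reads after ribosomal depletion, from 10 ng total RNA and 12 PCR cycles, per the labels' protocols (the molecule label says polyA RNA). The authors deposited raw counts per Ensembl gene. Per the submitters' processing notes, STAR and the build mm10 were used; the counter, its strand setting and its annotation were not given in the sources used here. Columns were tied to groups by library code. GENCODE M21 (GRCm38) matched 55394 of 55487 identifiers.

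Over the whole table, edgeR 4.0.16 TMM sizes (R 4.3.3) scaled the counts, and 0.5 counts were added for the log2 ratio. Intervals (95%, Clopper-Pearson split of the 2 counts, normal approximation of the log for quotients) cover counting error only. They take each count as independent, which PCR copies are not, so they can be too narrow even for that error. With 1 library per group no test was possible. The ratio calculation was also run on simulated counts. These held random counting error only, so that run cannot show how variation between mice or PCR copies affects the ratios. Alternatives were 4 other scalings (one DESeq2 1.42.0), 5 added counts, thinning, and other fold limits and count minimums. All 10 members were named, other pathway genes when past the 2-fold rule or among the most counted of their group, and further ones after their values were seen. The members and lists were chosen with earlier results of these data known. Some genes that the naming rule takes are not reported.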

Additional observations from a re-analysis of the deposited data

How the results depend on the processing

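Over 6 alternative settings for each of the 10 ratios (4 scalings, 5 added counts, thinning), the largest shift was 0.06 on the log2 scale. Of these 60 values 9 lay outside the counting interval of the main ratio, all under other scalings. Arg1 did so under each of the 4 scalings, at 0.67, 0.61, 0.60 and 0.69 against an interval of 0.62 to 0.65. The sign changed in 1 of 60 values, Odc1, which went from -0.05 to 0.01 with totals that leave out the 100 most abundant and the mitochondrial genes. The count of 2 members lower became 0 at a 3-fold limit and 3, with Ass1, at a 1.5-fold limit, where the 0 members higher became 1, Arg1. In the wider pathway, the 2 lower genes became 1 at a 3-fold limit, 1 with a minimum of 200 counts and 11 with a minimum of 1 count. The 1 higher gene became 4 at a 1.5-fold limit, 0 at a 3-fold limit, 0 when the whole interval had to lie beyond 2-fold and 3 with a minimum of 1 count. The share of all genes called was not computed at these other limits, so these counts cannot be set against it. No paired analysis was possible because each group is 1 library, and leaving out a library leaves no comparison. Depth limits the ratios of genes with few counts, and differences between mice were not measured.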

Other observations

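Some pathway genes had under 50 counts and were left out of the counts above. Nos1 and Nos3, the neuronal and endothelial nitric oxide synthases, had 14 and 2 counts with LPS and 0 and 12 with LPS+LCC-12, against 10408 and 3925 for Nos2. Sat2, a relative of Sat1, had 22 and 2 counts, and Azin2, a second antizyme inhibitor, had 31 and 37. The urea cycle genes Cps1 and Nags had 0 counts in both libraries and Otc had 1 and 0. The subunits of the nitric oxide receptor, Gucy1a1 and Gucy1b1, had 7 and 0 counts with LPS and 2 each with LPS+LCC-12.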
